A study of Mus musculus with 4 samples.

Results

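The genes described here code for molecular chaperones of the cytosol and mitochondria, together with the cold-inducible RNA-binding protein Cirbp, in the liver of male C57BL/6 mice. Members were chosen by a rule on gene names, set with earlier results of these data known. It takes a single gene symbol in the array's annotation that begins with Hsp, Dnaja, Dnajb or Dnajc, or with Cct and a digit, plus Cirbp. The endoplasmic reticulum chaperones Hspa5 and Hsp90b1 and the proteoglycan Hspg2 are left out. This gave 54 of the 8251 genes named on the array, each read through whichever of its probe sets was brightest on average. The name rule also takes in 5 J-domain proteins that work in the endoplasmic reticulum (Dnajb9, Dnajb11, Dnajc1, Dnajc3 and Dnajc10), and Hspb11, which belongs to the intraflagellar transport machinery of cilia, so the label fits most members but not every one.

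The 4 groups were adrenalectomised mice at zeitgeber time (ZT) 14, adrenalectomised mice at ZT2, sham-operated mice at ZT14 and sham-operated mice at ZT2, with 1 Affymetrix MG_U74Av2 array each. ZT counts hours from lights on. Adrenalectomised mice (ADX) had lost both adrenal glands under ketamine and xylazine anaesthesia and drank 0.9% NaCl, while sham-operated mice drank water, and all had standard chow freely available, so the operations also differ in the drinking fluid. How many mice went into each array is not given in the labels, and with a single array a group the differences below have no replicate check.

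Chaperones bind unfolded or partly folded proteins and keep them from aggregating. Hsp70 proteins do so in cycles of ATP hydrolysis that J-domain proteins start and that Hsp110 proteins and other exchange factors reset, Hsp90 acts later on chosen clients such as the glucocorticoid receptor, and the CCT ring and mitochondrial Hsp60 with Hsp10 enclose proteins while they fold. Heat shock factor 1 switches on the stress-inducible genes of these families by binding heat shock elements in their promoters. In mouse liver, heat shock transcripts are known to follow a daily rhythm with body temperature, high in the active dark phase, and Cirbp, which mild cold induces, is known to run against it.

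Signals are Affymetrix intensities on a linear scale, brought here to a common array mean, and a Present call marks a probe set detected above background. Present calls covered 44.4% to 47.0% of probe sets per array. The control ratios of 3' to 5' signal, a sign of RNA quality, were 1.69 to 1.89 for actin and 0.91 to 1.03 for Gapdh. All 7 hepatocyte markers on the array were Present on every array, while none of 3 bile duct and none of 5 skeletal muscle markers was Present on any. The exocrine pancreas marker Cela1 was Present on all arrays, at 91.1 units in ADX ZT14, 138.7 in ADX ZT2, 71.0 in sham ZT14 and 128.7 in sham ZT2. The adipose marker Fabp4 was too, at 5.6 to 10.8 units. Cela2a of the pancreas list and Adipoq and Lep of the adipose list were Absent on all arrays. The summed signal of 10 leukocyte markers was 524.8 in ADX ZT14, 458.6 in ADX ZT2, 413.9 in sham ZT14 and 472.8 in sham ZT2. That of 2 red cell markers was 1959.7, 1468.3, 1052.1 and 1755.0 in the same order. Both sums were lowest in sham ZT14, but they rest on a few bright genes. Of the leukocyte and red cell markers Present on all arrays, Hba-a1 (873.8), Lyz2 (115.4) and Adgre1 (24.6) were lowest in sham ZT14. Alas2 was lowest in ADX ZT14 (170.9), and Cd74 (147.3) and Csf1r (67.8) in ADX ZT2. The sum of 5 stellate cell markers, none Present on all arrays, was 138.4 in ADX ZT14, 103.7 in ADX ZT2, 87.9 in sham ZT14 and 78.7 in sham ZT2. The clock output gene Dbp, known to peak near dusk, had 115.8 units in ADX ZT14 and 98.2 in sham ZT14 and was Present on neither ZT2 array. The part of these cells in the results below was not tested. In bulk liver, fewer cells of a type and less RNA per cell cannot be told apart. A gene was called different by size alone, when the arrays differed at least 2-fold and the brighter one was Present. Over all genes the calls in the sham day-night pair were 150 higher and 110 lower at ZT14, and 114 and 132 after quantile normalization, so the balance of directions among weak differences depends on the scaling.

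Of the 54 members, 40 were Present on all 4 arrays, 5 on some arrays and 9 on none. Of all 8251 genes, 3889 were Present on all arrays and 5007 on at least 1, so members were detected more often than genes at large. The members Present on all arrays had mean signals of 14.5 to 1355.0, with a median of 146.4, against 76.8 for all genes so detected. A gene Present on no array cannot be called. The shares over all genes given below include many such genes, so they are a low background for this better detected set.

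The stress-inducible Hsp70 gene Hspa1b had the largest day-night difference of the members in both operations. Its signal was 276.4 in ADX ZT14 and 77.1 in ADX ZT2, against 283.0 in sham ZT14 and 50.1 in sham ZT2. Both ZT14 arrays were therefore well above both ZT2 arrays, by 3.58-fold in ADX and 5.64-fold in sham livers. Among genes Present on both arrays of a pair, this difference was number 12 from the top of 4075 in ADX and number 7 of 4146 in sham. Hspa1a, its neighbouring near-copy, had a signal of 18.9 in ADX ZT14 and 12.3 in ADX ZT2, against 35.9 in sham ZT14 and 11.0 in sham ZT2. The high value was that of sham ZT14, with a 3.26-fold difference in sham livers and 1.54-fold in ADX livers, which is short of 2-fold. These signals are low, and with the floor on signals raised to 16.6 units the sham log2 difference of 1.70 became 1.11. Transcripts of Hspa1a and Hspa1b may bind to both probe sets, so each is uncertain as a measure of its own gene.

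The promoters of this pair are shown because they carry the heat shock element and because they are so alike. In the RefSeq gene order of chromosome 17, Hspa1b lies beside Hspa1a, and Hspa1l lies on the far side of Hspa1a. Of the 250 bases before the start of Hspa1b, 247 (98.8%) are identical in Hspa1a. Each is given 5′ to 3′ on the gene's strand, from RefSeq on GRCm38.p6, with GAANNTTC, the core of a heat shock element made of 2 inverted units, in capitals.
Hspa1b (chr17:34959239-34959488, minus strand): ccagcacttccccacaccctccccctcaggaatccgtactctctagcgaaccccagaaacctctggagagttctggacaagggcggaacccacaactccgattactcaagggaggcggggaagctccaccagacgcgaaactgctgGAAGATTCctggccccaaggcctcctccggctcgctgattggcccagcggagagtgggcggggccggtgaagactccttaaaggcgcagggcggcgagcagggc
Hspa1a (chr17:34972157-34972406, minus strand): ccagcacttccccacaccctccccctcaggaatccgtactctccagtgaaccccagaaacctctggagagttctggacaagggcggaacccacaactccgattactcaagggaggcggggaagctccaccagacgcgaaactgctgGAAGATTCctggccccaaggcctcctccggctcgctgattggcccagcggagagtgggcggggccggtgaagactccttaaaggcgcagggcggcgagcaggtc

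Hsph1 and some of the J-domain members were higher at ZT14 in both operations by smaller steps than Hspa1b, while the J-domain family as a whole was mixed. Of its 21 members Present on all arrays, 12 were higher and 9 lower at ZT14 in ADX, and 14 were higher and 7 lower in sham. Those described next are the ones with the larger steps, and Dnajb2, for example, had log2 differences of -0.22 in ADX and -0.28 in sham. Hsph1, the Hsp110 protein that exchanges the nucleotide of Hsp70, had 222.3 units in ADX ZT14 and 145.1 in ADX ZT2, against 249.1 in sham ZT14 and 136.0 in sham ZT2. That is 1.53-fold higher at ZT14 in ADX and 1.83-fold in sham livers. Dnajb1, the inducible J-domain partner of cytosolic Hsp70, had 80.7 units in ADX ZT14 and 45.6 in ADX ZT2, against 76.9 in sham ZT14 and 38.7 in sham ZT2. Its folds of 1.77 in ADX and 1.99 in sham were just under the 2-fold limit. Dnajb6, a J-domain protein that suppresses aggregation, had 403.1 units in ADX ZT14 and 229.9 in ADX ZT2, against 348.9 in sham ZT14 and 240.3 in sham ZT2, and its dimmer probe set was higher at ZT14 too, with log2 differences of 1.27 in ADX and 0.95 in sham. Dnaja1, a J-domain partner of Hsc70, had 621.3 units in ADX ZT14 and 494.5 in ADX ZT2, against 743.2 in sham ZT14 and 434.5 in sham ZT2. Its fold was 1.26 in ADX and 1.71 in sham. Dnajb4, a relative of Dnajb1, had 69.3 units in ADX ZT14 and 61.5 in ADX ZT2, against 86.6 in sham ZT14 and 53.1 in sham ZT2. For all of these genes both ZT14 signals lay above both ZT2 signals.

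**Figure D1:**
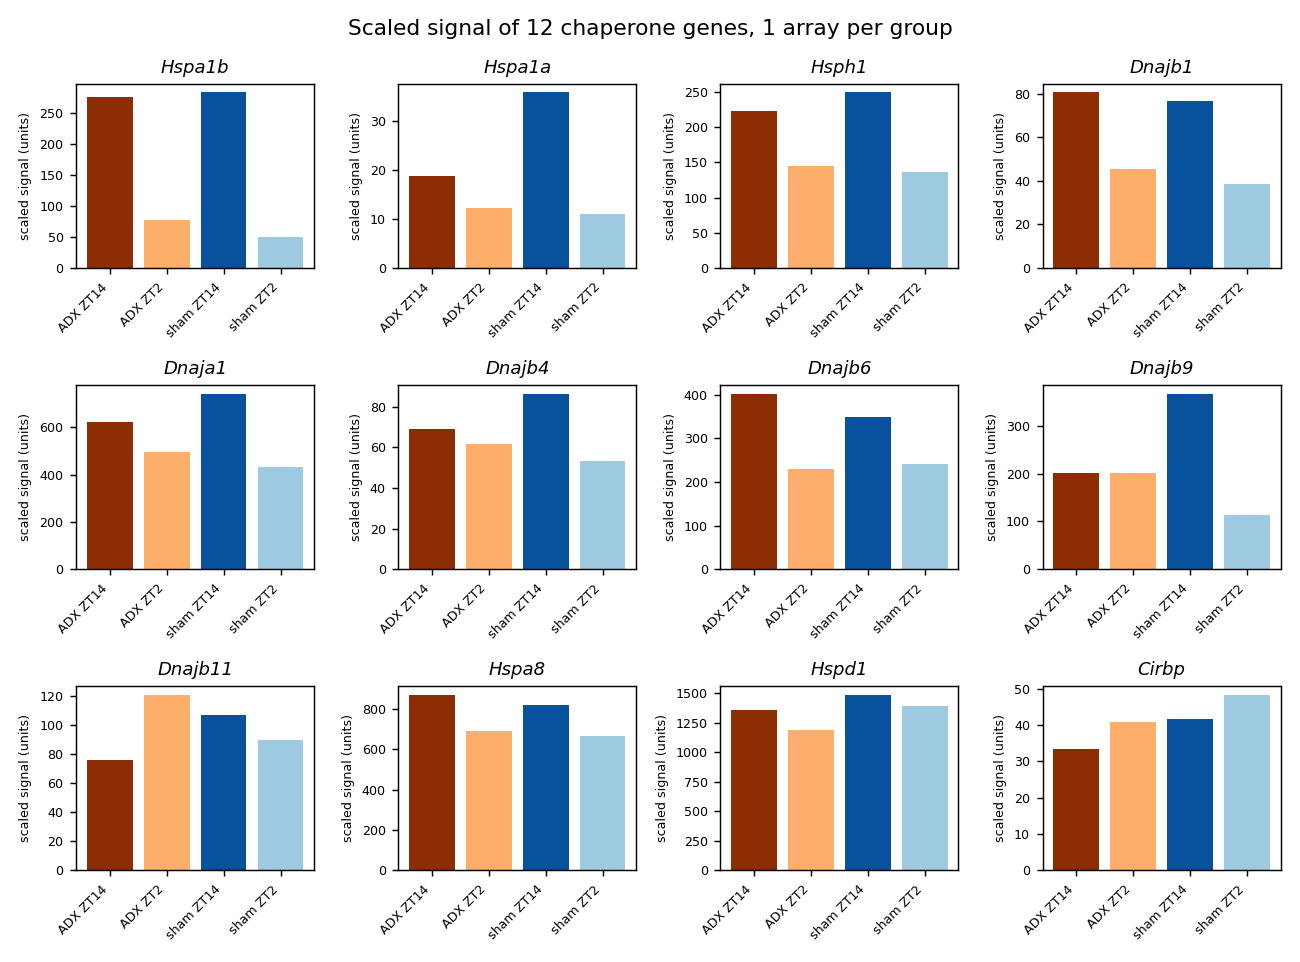
Scaled signal (linear units, axis from 0) of 12 members on the 4 arrays, ADX ZT14, ADX ZT2, sham ZT14 and sham ZT2 from left to right in each panel, with 1 array per bar and no error bars because no group has replicates. Hspa1b stands at 276.4 and 283.0 on the ZT14 arrays and at 77.1 and 50.1 on the ZT2 arrays, while Dnajb9 is high on the sham ZT14 array alone, at 367.2.

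Counted over the members, 1 of 54 (Hspa1b) was at least 2-fold higher at ZT14 in ADX livers, against 1.54% of all genes, and none was lower, against 1.27%. In sham livers 4 of 54 (Hspa1b, Hspa1a, Dnajb9 and Dnajb13) were higher, against 1.82% of all genes, and none was lower, against 1.33%. Dnajb13 was Present on the sham ZT14 array alone, so it passed detection only through the array where it was high. Among genes Present on at least 1 array, 4 of 45 members and 150 of 5007 genes were called higher in sham. Among those Present on all arrays, it was 3 of 40 members and 76 of 3889 genes. At 1.5-fold, 5 members were higher in ADX, against 4.79% of all genes, namely Hspa1b, Hspa1a, Hsph1, Dnajb1 and Dnajb6, and 2 were lower, against 4.4%, namely Hspa14 and Dnajb11. In sham 8 were higher at 1.5-fold, against 5.02% of all genes, with Dnajb1, Hsph1, Dnaja1 and Dnajb4 added to the 2-fold calls, and none was lower, against 4.59%. Hspa1b, Hspa1a, Hsph1 and Dnajb1 were at least 1.5-fold higher in both operations, which makes 4 of the 40 members Present on all arrays, against 2.13% of the 3889 genes so detected. In all these counts Hspa1a and Hspa1b stand as 2 members, though transcripts of each may bind to both probe sets. For Hspa1a the ADX log2 difference of 0.62 became 0.56 after quantile normalization and 0.19 with the floor of 16.6 units, and for Hsph1 that of 0.62 became 0.58 with signals as deposited, all just or well under 1.5-fold. The members' median log2 difference was 0.10 in ADX and 0.13 in sham livers over all 54, where the median of all genes was 0 in both.

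The ADX and sham pairs share no array, so the day-night difference of a member is seen on separate arrays in each. Of the 40 members Present on all arrays, 24 were higher at ZT14 in ADX, against 50.1% of genes so detected, and 25 in sham, against 48.4%. Together 19 were higher at ZT14 in both operations, against 30.8% of genes, and 10 were lower in both, against 32.3%. Across these 40 genes, which are not independent replicates, the differences of the operations had a Pearson r of 0.68, and across all 3889 genes it was 0.49. Hspa1b lies at the far high end of both, and a single such gene weighs heavily on an r over 40 genes. Without it r was not computed, so the members' higher r is not read as a trait of the set.

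**Figure D2:**
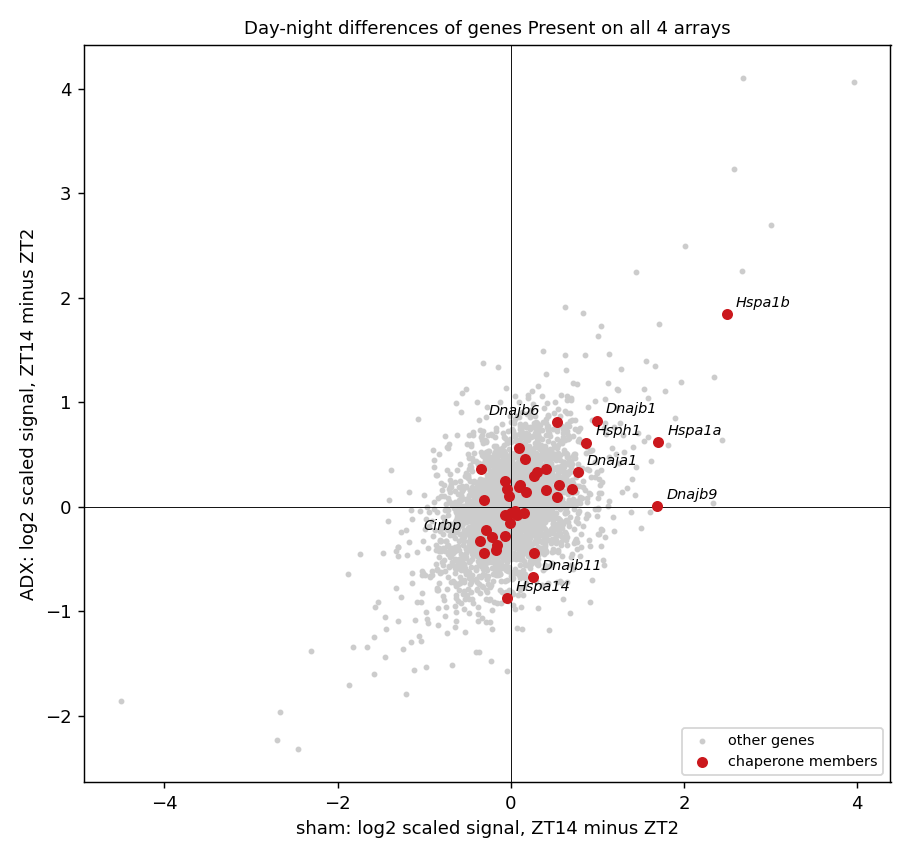
Day-night difference (log2 scaled signal, ZT14 minus ZT2) in sham livers on the horizontal axis and in ADX livers on the vertical axis for the 3889 genes Present on all arrays, with the 40 members so detected in red. Hspa1b lies at 2.50 in sham and 1.84 in ADX, and Dnajb9 lies at 1.69 in sham and 0.01 in ADX.

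The other Hsp70 members Present on all arrays, with Hsp90aa1 and Hspb8, had no 2-fold call between the times, and Hspa14 was the 1 among them past 1.5-fold, in ADX. Hspa8, the constitutive Hsc70, had 871.7 units in ADX ZT14 and 689.7 in ADX ZT2, against 820.2 in sham ZT14 and 666.6 in sham ZT2, a fold of 1.26 in ADX and 1.23 in sham. Hsp90aa1, the inducible form of Hsp90, had 363.5 units in ADX ZT14 and 314.5 in ADX ZT2, against 367.4 in sham ZT14 and 340.2 in sham ZT2. Its fold was 1.16 in ADX and 1.08 in sham, well below those of Hspa1b. Hspa4, an Hsp110-type exchange factor, had lower signals at ZT14, with 165.0 units in ADX ZT14 and 224.2 in ADX ZT2, against 165.2 in sham ZT14 and 204.7 in sham ZT2. Its probe sets disagree: of the other pair Present on all arrays, one gave log2 differences of 0.11 in ADX and 0.42 in sham, and the other -0.66 in ADX and 0.24 in sham. Hspa4l, its relative, was 1.47-fold higher at ZT14 in ADX and 1.07-fold in sham. Hspa14, an Hsp70 tied to ribosomes, had 21.5 units in ADX ZT14 and 39.3 in ADX ZT2, against 34.3 in sham ZT14 and 35.3 in sham ZT2, so the ADX ZT14 array was the low one, 1.83-fold below ADX ZT2 and outside the central 95% of genes. Hspb8, a small heat shock protein that works with Bag3, had log2 differences of 0.16 in ADX and 0.41 in sham.

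Mitochondrial chaperones differed by at most 1.24-fold between the times where Present on all arrays. Hspd1, the mitochondrial Hsp60, had 1354.6 units in ADX ZT14 and 1189.6 in ADX ZT2, against 1486.0 in sham ZT14 and 1389.9 in sham ZT2. Hspe1, its Hsp10 lid, had 875.9 units in ADX ZT14 and 779.4 in ADX ZT2, against 749.9 in sham ZT14 and 770.0 in sham ZT2. Hspa9, the mitochondrial Hsp70, was 1.23-fold higher at ZT14 in ADX and 1.2-fold in sham. Dnaja3, its J-domain partner, had log2 differences of 0.25 in ADX and -0.07 in sham, and Dnajc15, which serves protein import, 0.07 in ADX and -0.30 in sham. None of these passed 1.5-fold.

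The heat shock element occurred both in members with larger and in members with smaller day-night differences. RefSeq promoters (250 bases before to 50 after each start, GRCm38.p6) were found for 46 of the 54 members. An element of 3 units, GAANNTTCNNGAA on either strand, occurred in 4 of these 46 (Dnajb6, Hspd1, Hspe1 and Hsph1), against 0.662% of the 27025 genes in the promoter table. The shorter GAANNTTC, which the longer element contains and which reads alike on both strands, occurred in 10 (those 4 with Hspa1a, Hspa1b, Dnaja1, Hspb8, Hspb1 and Cct2), against 9.04% of genes. Of these, Hspd1 and Hspe1 had the small differences given above, and Hspb1 was Present on no array. Dnajb1 and Dnajb4 were not listed with a match of either length, though a member without a RefSeq promoter could have none. In Hsph1 the longer element begins 36 bases after one annotated start and 15 after another. The stretches around the element are given 5′ to 3′ on each gene's strand, with the element in capitals, to set genes with larger and smaller day-night differences side by side.
Dnajb6 (chr5:29735832-29735884, plus strand): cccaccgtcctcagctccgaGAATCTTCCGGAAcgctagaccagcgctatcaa
Hsph1 (chr5:149636287-149636308, minus strand): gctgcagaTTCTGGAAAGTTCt
Dnaja1 (chr4:40722324-40722371, plus strand): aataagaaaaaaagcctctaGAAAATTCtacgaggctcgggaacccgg
Hspd1 (chr1:55088039-55088096, minus strand): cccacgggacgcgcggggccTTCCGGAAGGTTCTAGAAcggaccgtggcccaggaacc
Hspe1 (chr1:55088039-55088096, plus strand): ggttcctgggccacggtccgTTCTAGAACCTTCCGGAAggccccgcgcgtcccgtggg
Hspd1 and Hspe1 are neighbours on chromosome 1 and share 1 stretch of DNA, read from opposite strands, in which overlapping matches join. A match in a promoter is a description of the letters and not a measured binding site.

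**Figure D3:**
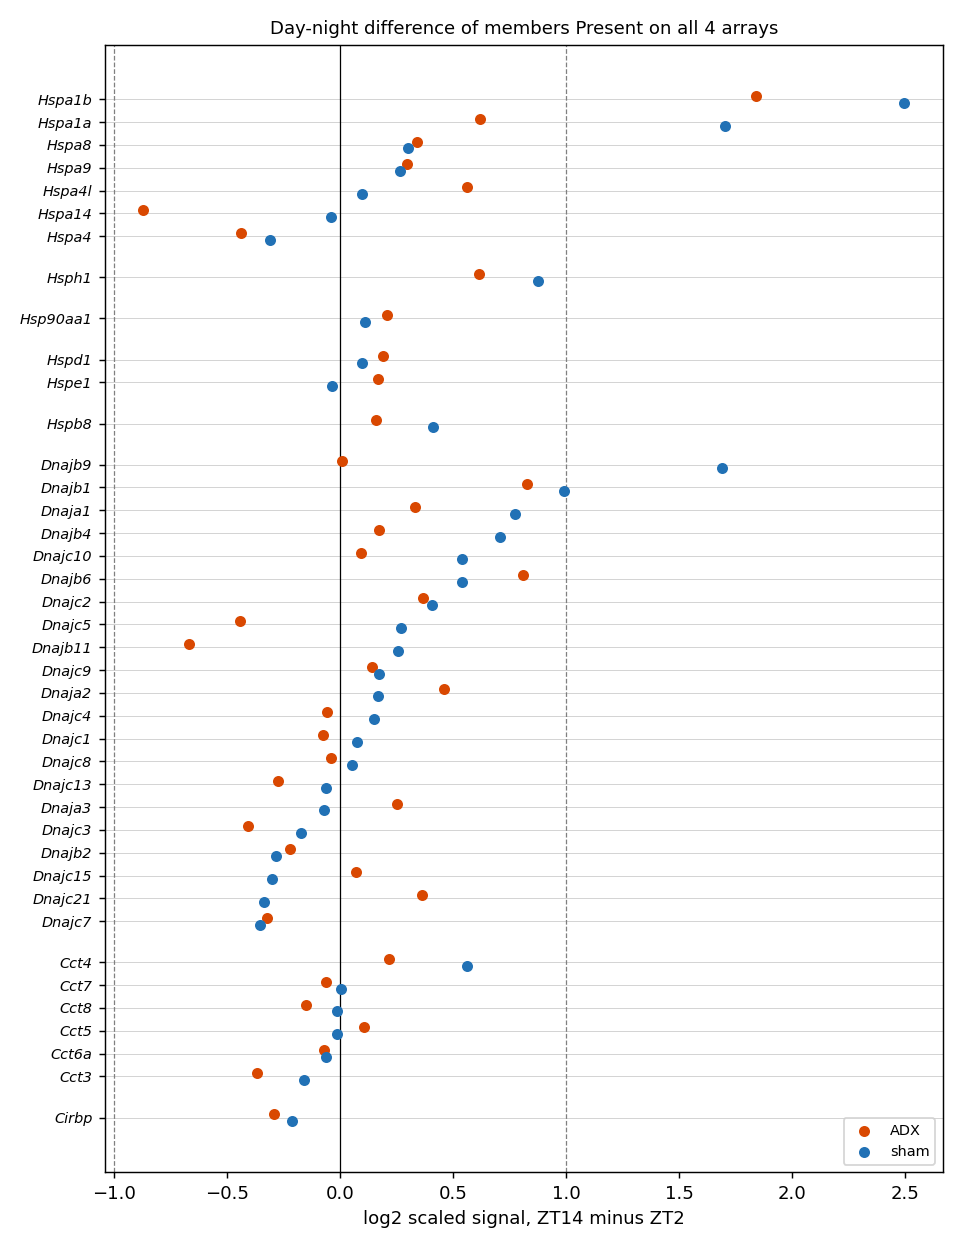
Day-night difference (log2 scaled signal, ZT14 minus ZT2) of the 40 members Present on all arrays, ADX in orange and sham in blue, grouped from the top as Hsp70, Hsp110, Hsp90, Hsp60 with Hsp10, small heat shock, J-domain, CCT and Cirbp, with dashed lines at 2-fold. The points of Hspa1b (1.84 in ADX and 2.50 in sham) lie past the line in both operations, those of Hspa1a and Dnajb9 in sham alone, and the CCT points lie between -0.37 and 0.56.

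The subunits of the CCT ring, which folds actin and tubulin, showed no common day-night step. Over the 6 subunits Present on all arrays, log2 differences ran from -0.37 to 0.21 in ADX, with 2 higher and 4 lower at ZT14, and from -0.16 to 0.56 in sham, with 2 higher and 4 lower. Cct4 was the highest of them, with 304.1 units in ADX ZT14 and 262.2 in ADX ZT2, against 311.7 in sham ZT14 and 211.3 in sham ZT2. Cct3 was the lowest, at -0.37 in ADX and -0.16 in sham, and a further probe set gave -0.31 in ADX and -0.09 in sham, while the dimmest gave 0.59 in ADX and 0.38 in sham. Cct5, Cct6a, Cct7 and Cct8 stayed within 1.11-fold in both operations by the probe sets used. A dimmer probe set of Cct5, Present on all arrays at 20.4 to 37.3 units, gave 0.87 in ADX and 0.29 in sham. Cct2 was not Present on the ADX ZT2 array, and Cct6b was Present on none.

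Among the 5 members of the endoplasmic reticulum, 1 was called, higher at ZT14 in sham livers, where 1.82% of all genes were, and their median day-night log2 difference was -0.08 in ADX and 0.25 in sham. Dnajb9, a J-domain protein of the endoplasmic reticulum that is induced by unfolded proteins there, had 201.6 units in ADX ZT14 and 200.8 in ADX ZT2, against 367.2 in sham ZT14 and 113.8 in sham ZT2. It was 3.23-fold higher at ZT14 in sham livers, where it was number 18 from the top of 4146 genes, and 1.0-fold in ADX livers. Its other probe set had the same order with smaller steps, at 165.7 units in ADX ZT14 and 158.5 in ADX ZT2, against 209.9 in sham ZT14 and 114.3 in sham ZT2, a log2 difference of 0.88 in sham and 0.06 in ADX. Dnajb11, a partner of the endoplasmic reticulum Hsp70, had 76.1 units in ADX ZT14 and 121.0 in ADX ZT2, against 107.2 in sham ZT14 and 89.8 in sham ZT2, lower at ZT14 in ADX and higher in sham. Dnajc10, a disulfide reductase, had log2 differences of 0.09 in ADX and 0.54 in sham, and Dnajc1, a membrane protein, -0.08 and 0.07. Dnajc3, an inhibitor of the kinase PERK, had -0.41 and -0.17, but its probe sets disagree. One other gave 0.06 in ADX and 0.34 in sham, and a further one, with 66.7 units in ADX ZT14 and 148.5 in ADX ZT2, against 118.9 in sham ZT14 and 99.2 in sham ZT2, gave -1.15 in ADX and 0.26 in sham. The difference between operations in Dnajb9 was -1.68 on the log2 scale, the largest of the 40 members Present on all arrays, followed by Hspa1a at -1.08 and Dnajb11 at -0.92. With 1 array per group these differences between operations were not tested.

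The promoter of Dnajc3 was the only one among 46 members with the endoplasmic reticulum stress element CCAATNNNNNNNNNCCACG, which 0.137% of genes hold on either strand, and it is shown as the single match among them.
Dnajc3 (chr14:118937807-118937865, plus strand): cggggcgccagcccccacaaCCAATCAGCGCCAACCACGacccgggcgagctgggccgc

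Genes of related function outside the members were read from lists of co-chaperones, endoplasmic reticulum chaperones and cold-inducible genes. Of 24 co-chaperones and heat shock regulators on the array, 1 was at least 2-fold higher at ZT14 in ADX (Pfdn5, a prefoldin subunit, at least 3.01-fold with a signal of 15.4), against 1.54% of all genes, and none was lower, against 1.27%. In sham 2 were higher, against 1.82% of all genes, namely Fkbp5, an Hsp90 co-chaperone at the glucocorticoid receptor, and the haem oxygenase Hmox1, at 3.51-fold and 3.06-fold, and none was lower, against 1.33%. The list's median log2 difference was 0.02 in ADX and 0.05 in sham, where that of all genes was 0. Between operations, Fkbp5 was 2.66-fold lower in ADX at ZT14 and Hmox1 2.04-fold higher in ADX at ZT2. Bag3, a partner of Hspb8 that heat shock factor 1 induces, had 306.4 units in ADX ZT14 and 266.0 in ADX ZT2, against 274.4 in sham ZT14 and 161.6 in sham ZT2. Chordc1, an Hsp90 co-chaperone, had 228.1, 192.5, 223.7 and 140.0 units in the same order. For both genes each ZT14 signal lay above each ZT2 signal, and the sham ZT2 array was the lowest. Their folds were 1.15 (Bag3) and 1.19 (Chordc1) in ADX, and 1.70 and 1.60 in sham, short of 2-fold. The other Hsp90 co-factors Stip1, Cdc37 and Fkbp4 stayed within 1.17-fold in both operations.

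Of 16 endoplasmic reticulum chaperones and stress genes on the array, 1 was called higher at ZT14 in ADX (Ddit3), against 1.54% of all genes, and 1 lower (Pdia6), against 1.27%. In sham 3 were higher (Creld2, Herpud1 and Ddit3), against 1.82%, and none lower, against 1.33%. Their median was -0.12 in ADX and 0.31 in sham. Between operations none of the 16 was called, 5 were at least 1.5-fold lower in ADX at ZT14, against 3.15% of all genes, and 2 were higher in ADX at ZT2, against 3.45% (Creld2 at 1.84-fold and Pdia4 at 1.61-fold). Creld2, an endoplasmic reticulum stress gene, had 242.8 units in ADX ZT14 and 250.7 in ADX ZT2, against 415.8 in sham ZT14 and 136.1 in sham ZT2, with the highest signal in sham ZT14 and the lowest in sham ZT2, as in Dnajb9. Herpud1, of the degradation pathway of that compartment, had 759.4, 633.0, 1241.5 and 469.3 units in the same order of arrays. Hspa5 and Hsp90b1, the main Hsp70 and Hsp90 of the endoplasmic reticulum, had day-night log2 differences of -0.19 and -0.14 in ADX and of 0.23 and 0.32 in sham.

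Cirbp was lower at ZT14 in both operations by small steps. It had 33.3 units in ADX ZT14 and 40.8 in ADX ZT2, against 41.6 in sham ZT14 and 48.3 in sham ZT2, a log2 difference of -0.29 in ADX and -0.21 in sham. Neither difference leaves the central 95% of genes Present on both arrays, which ran from -0.79 to 0.83 in ADX and from -0.84 to 0.90 in sham. It was also lower in ADX than in sham at both times, with log2 differences of -0.32 at ZT14 and -0.24 at ZT2. Of the other 5 genes on the array from the cold-inducible list, only Rbmx, an RNA-binding protein, was called, with signals of at most 17.9 units. Between the times it was called in sham alone, at least 2.53-fold lower at ZT14, against 1.33% of all genes. Between operations it was at least 2.67-fold higher in ADX at ZT14, against 1.13% of all genes. The sham day-night log2 differences of the rest were 0.48 (Srsf2), 0.29 (Clk4), 0.04 (Srsf5) and -0.10 (Clk1). In ADX these were -0.11, 0.10, -0.28 and -0.23 in the same order.

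The day-night effect was tested in 43 members by limma, with terms for time and operation over 5872 probe sets, so that each time has 1 ADX and 1 sham array. The day-night effect of Hspa1b was 2.17 on the log2 scale (SE 0.22, adjusted p = 0.175 in limma with Benjamini-Hochberg adjustment), with the higher signal at ZT14 in both of 2 pairs. Next in order of p were Dnajb1 at 0.91 (SE 0.16, limma adjusted p = 0.252), Hsph1 at 0.74 (SE 0.17, limma adjusted p = 0.277) and Dnajb6 at 0.67 (SE 0.17, limma adjusted p = 0.3). Hspa1a had a larger effect than Dnajb1, at 1.16, but with a wider spread (SE 0.31, limma adjusted p = 0.32). Thus limma called 0 of 43 members after adjustment, and 2 of all 5872 probe sets. At an unadjusted limma p under 0.05 there were 6 of 43 members, beside 773 of 5872 probe sets, so the count is near the share over all. These 6 were all higher at ZT14, namely Hspa1b, Dnajb1, Hsph1, Dnajb6, Hspa1a and Dnaja1. The directions of the 773 probe sets were not counted. With a variance trend on signal, limma called 4 members (Hspa1b, Hsph1, Dnajb6 and Dnajb1) and 154 probe sets, so the call turns on how the spread is modelled. A single degree of freedom is left for the spread, any unlike response of ADX and sham is counted in it, and the p-values cover the spread of these arrays alone, which may be technical. For the operation effect, limma called 0 of 43 members and 0 of all probe sets, with a lowest adjusted p among members of 0.831 (Dnajc7). At an unadjusted limma p under 0.05 there were 0 members and 329 probe sets.

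Between operations at ZT14, 1 member was called. None of 54 was at least 2-fold higher in ADX, against 1.13% of all genes, and 1 was lower, against 0.776%. This was Dnajb13, a protein of sperm tails and cilia, Present on the sham ZT14 array alone at 35.0 units and at least 2.23-fold lower in ADX. The inducible genes Hspa1b, Dnajb1 and Hsph1 had log2 differences of -0.03, 0.07 and -0.16 at this time. Hspa1a was 1.9-fold lower in ADX and Dnajb9 1.82-fold lower, both outside the central 95% of genes, which ran from -0.70 to 0.74. At 1.5-fold, 4 members were lower in ADX, against 3.15% of all genes (Dnajb13, Hspa1a, Dnajb9 and Hspa14), and 1 was higher, against 4.08% (Dnajc21, a ribosome assembly factor, at 17.8 units in ADX and 11.6 in sham). The members' median log2 difference was -0.03, where that of all genes was 0, and 17 of the 40 Present on all arrays were higher in ADX, against 52.4% of genes.

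At ZT2, none of 54 members was at least 2-fold higher in ADX, against 0.861% of all genes, and none was lower, against 0.448%. At 1.5-fold, 3 were higher, against 3.45% of all genes, and none was lower, against 2%. They were Dnajb9 with 200.8 units in ADX and 113.8 in sham, Hspa1b with 77.1 in ADX and 50.1 in sham, and Dnajc11, of the inner mitochondrial membrane complex, with 50.7 in ADX and 32.5 in sham. The 5 endoplasmic reticulum members had higher signals in ADX throughout, by log2 differences of 0.13 (Dnajc3) to 0.82 (Dnajb9), but with signals as deposited 1 of the 5 turned lower, and another probe set of Dnajc3 gave -0.12. Of the 40 members Present on all arrays, 29 were higher in ADX, against 50.1% of genes, with a median of 0.13. With signals as deposited, where the median of all genes so detected was -0.17, this turned to 15 higher and a median of -0.04. That step shifts all genes alike, so it could not change the 0.13 by which the members' median stood above that of all genes. After quantile normalization 26 were higher, with a median of 0.10, where that of all genes so detected was -0.01. The ADX against sham comparisons use the same 4 arrays as the day-night pairs, so the low sham ZT2 values of Hspa1b and Dnajb9 enter both.

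**Figure D4:**
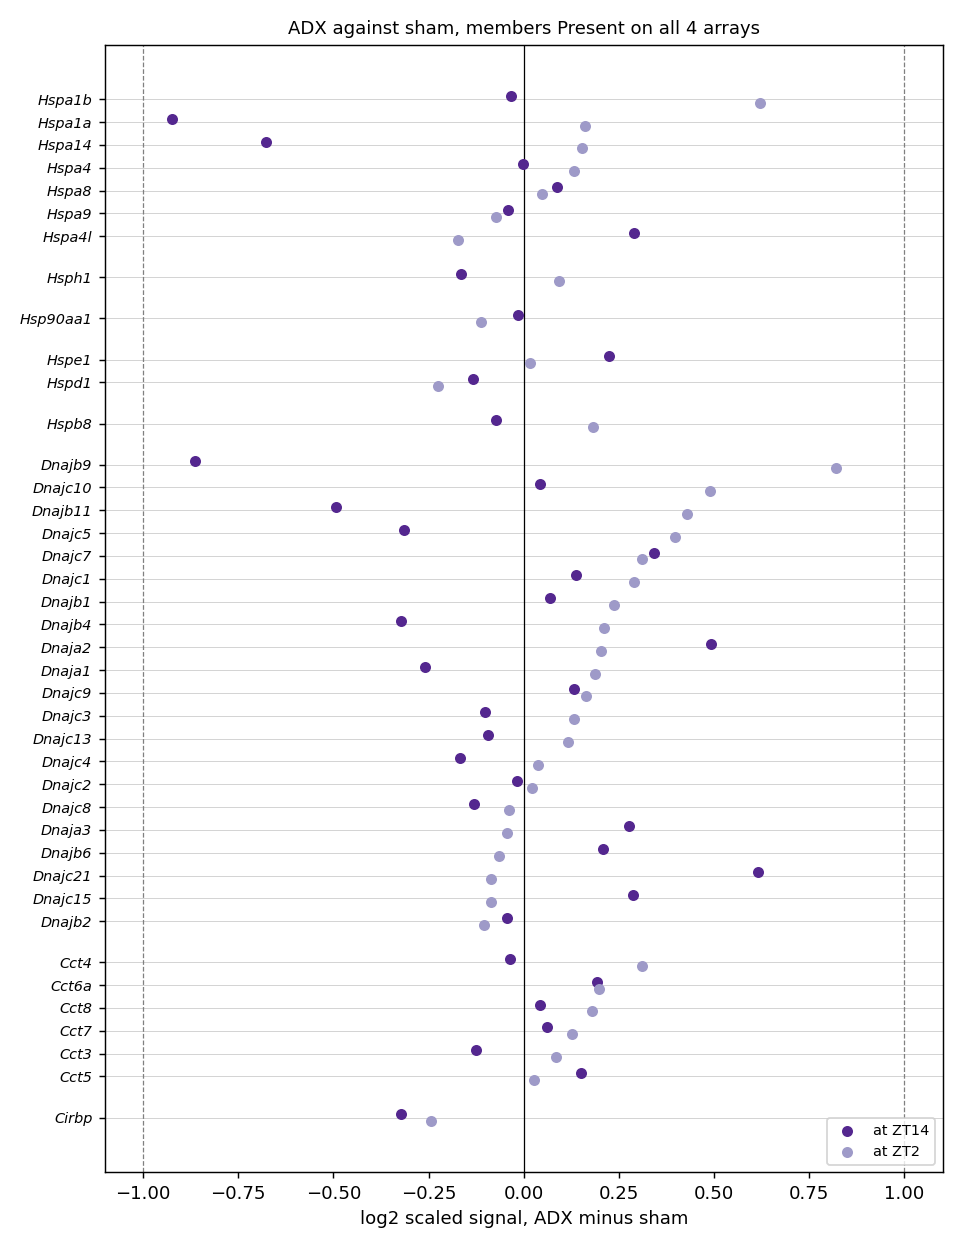
Difference between operations (log2 scaled signal, ADX minus sham) of the 40 members Present on all arrays, at ZT14 in dark purple and at ZT2 in light purple, grouped as in the plot of day-night differences, with dashed lines at 2-fold. No point reaches a dashed line, and the points of Dnajb9 lie on opposite sides of 0, at -0.86 at ZT14 and 0.82 at ZT2.

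The remaining members can be given by their ranges. Dnaja2, Dnajb2, Dnajc2, Dnajc4, Dnajc5, Dnajc7, Dnajc8, Dnajc9 and Dnajc13 stayed under 1.5-fold in all 4 comparisons. Among them, Dnajc7, a co-chaperone of both Hsp70 and Hsp90, had 122.4 units in ADX ZT14 and 153.2 in ADX ZT2, against 96.6 in sham ZT14 and 123.5 in sham ZT2, lower at ZT14 in both operations and higher in ADX at both times. Dnajc2, which binds ribosomes, was higher at ZT14 by log2 differences of 0.37 in ADX and 0.41 in sham, but its other probe set gave -0.01 in ADX and 0.15 in sham. Hspbp1, an exchange factor of Hsp70, was Present on the sham arrays only, with 55.3 units in sham ZT14 and 37.5 in sham ZT2. Its signals on the ADX arrays, called Absent, were 37.9 in ADX ZT14 and 37.6 in ADX ZT2, much as in sham ZT2. The detection calls therefore do not show a loss of its transcript in ADX. Hspb11 was Present on the sham ZT2 array alone and Marginal on ADX ZT14, so its 2.41-fold difference in ADX was not called. The 9 members Present on no array were Hspb1 and Hspb2, both small heat shock genes, the testis-enriched Hspa1l and Hspa2, with Dnajb3, Dnajb5, Dnajb8, Dnajc17 and Cct6b, none with a signal above 25.5.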

How the data were processed

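Per the file headers, the authors deposited for every probe set a linear intensity (Affymetrix Signal) with a Present, Marginal or Absent call. The deposited detection p-value lies behind that call and entered nothing else. Which software made these values, and to what target it scaled them, is not given in the sources used here.

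Each array was scaled to a common 2% trimmed mean (factors 0.925 to 1.067). Signals under 3.91 units, the median Absent signal (which exceeds the lowest Present one), were raised to it before log2. Of 12488 probe sets, 66 were controls. The platform annotation gave 1 symbol for 10833 others, and all 54 members were found in the RefSeq table. Depth has no counterpart on arrays: their number limits the precision.

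A call needs 2-fold and a Present brighter array. The limma fit (3.58.1, R 4.3.3) took time and operation over probe sets Present on at least 2 arrays. Other steps used Python 3.11.15, NumPy 2.4.6 and pandas 2.3.3, and the steps were tested on simulated data. Alternatives were quantile normalization, deposited signals, floors of 1 and 16.6 units, the mean of all probe sets, 1.5-fold and detection filters. The genes named are the calls, the 6 highest and lowest members per comparison, classical members, the 6 largest differences between operations and listed related genes. Members, lists and rules were chosen with earlier results of these data known.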

Additional observations from a re-analysis of the deposited data

Results flagged for a closer look

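Dnajb11, a J-domain protein of the endoplasmic reticulum, had day-night log2 differences of opposite sign in the operations, -0.67 in ADX and 0.25 in sham livers, each from 1 pair of arrays. This difference between operations was not tested.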

How the results depend on the processing

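No paired analysis was possible because each group has 1 array and no replicate number, beyond the operation term that the reported limma fit already holds, without which it called 0 members. Of the recomputed log2 differences of named members, 777 kept their side of the 2-fold call, 3 did not, and none turned its direction past it. Dnajb13 in sham fell short after quantile normalization (0.90) and with signals as deposited (0.93), and Hspa1a passed in ADX against sham at ZT14 with signals as deposited (-1.05). Members called at ZT14 between operations numbered 2 with signals as deposited and 0 over members Present on all arrays, against 1. At 1.5-fold the calls numbered 7 (ADX day-night), 8 (sham day-night), 5 (operations at ZT14) and 3 (operations at ZT2). Signals as deposited took the members' median log2 difference between operations to -0.16 at ZT14 and -0.04 at ZT2, while scaling shifts all genes alike. For the day-night effect limma called 1 member (Hspa1b) with signals as deposited and 4 with a variance trend, against 0, and 0 under each other alternative run. For the operation effect it called 0 members under every alternative run, and 0 at an unadjusted p under 0.05 in the fit as reported. Leaving out an array was not run, since 3 arrays leave the additive fit no residual degree of freedom. The cause of these changes was not tested. Signals near background, such as those of Hspa1a and Dnajb13, limit the size of any difference that can be read.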
